A study of Homo sapiens with 6 samples.

Results

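A set of genes known as mediators of lung, bone or brain metastasis of the breast cancer line MDA-MB-231 were followed in cells depleted of cysteine-rich protein 2 (CRP2) and in control cells. The 10 genes were ANGPTL4, CXCR4, IL11, PTGS2, ID1, EREG, NEDD9, L1CAM, VCAM1 and ST6GALNAC5. They were listed by symbol as known mediators in this line, with earlier results of these data known. They are 10 of 58395 genes in the count table, and all 10 were among the 23806 genes with enough counts to test. MDA-MB-231 is an invasive, triple-negative human line, and its derivatives selected in mice for growth in a given organ were the source of most of these genes. The study transfected the cells with a non-targeting siRNA (siCTR) or with a siRNA against CSRP2, the gene of CRP2 (titled siCSRP2, and called siCRP2 here). Both groups were grown in complete DMEM in multiwell plates, with 3 libraries each, and harvested 65 h after transfection according to the labels, whereas the methods of the study give a slightly later time. A single siRNA (siCRP2#a) served for the sequenced knockdown. In these libraries, effects of CRP2 loss and effects of this siRNA on other transcripts therefore cannot be told apart. For MMP transcripts measured by PCR, the study also used another siRNA and a knockdown line with CRP2 restored.

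Metastasis of this line is usually pictured as a set of steps that need different molecules in different organs. Secreted factors loosen vessels or instruct the host tissue, chemokine receptors guide the cells to tissues rich in the ligand, adhesion molecules hold them against vessels or stromal cells, and intracellular regulators sustain migration and growth. ANGPTL4 opens endothelial junctions in the lung, IL11 favours osteoclast formation in bone, and ST6GALNAC5 and L1CAM act at the vessels of the brain. The present cells were cultured alone, without any of these tissues.

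CSRP2 itself stood at 13.7, 11.7 and 11.4 CPM (counts scaled to the library total) in the siCTR libraries and at 2.17, 1.78 and 1.89 CPM in the siCRP2 libraries with codes 0412, 0611 and 1311, a log2 fold change of -2.66. The codes come from the column names, and each is shared by a library of either group. Library totals ran from 17336798 to 39115778 counts, the largest being siCRP2 library 1311, and 1 count was worth 0.0256 to 0.0582 CPM. In siCTR cells the keratin genes KRT8, KRT18 and KRT19 stood at mean levels of 1025, 680 and 403 CPM. The epithelial genes EPCAM and CDH1 were lower, at 31.4 and 17.4 CPM in siCTR. The mesenchymal genes FN1 (2328 CPM), VIM (1782 CPM) and ZEB1 (79.9 CPM) stood above SPARC (3.998 CPM) and CDH2 (0.979 CPM) in siCTR. The basal genes KRT5, KRT14 and TP63 were at 0.094, 0.385 and 1.37 CPM in siCTR. ESR1 had 4 counts in the 6 libraries and PGR had 0.

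Of the 10 mediators, 4 were lower (ID1, VCAM1, NEDD9 and L1CAM) and 1 was higher (ANGPTL4) in siCRP2 cells at an adjusted p under 0.05 in edgeR's quasi-likelihood test, and 5 passed in neither direction. Among all genes tested, 11.5% were lower and 12.5% were higher by the same rule. All 10 mediators are protein-coding, and of the 14858 protein-coding genes tested, 2369 were lower and 2852 higher. The median log2 fold change was -0.50 over the 10 mediators and -0.02 over all genes tested. As the mediators were chosen with earlier results of these data known, these contrasts with all genes are not independent results. Values of the 2 groups were fully separate for 6 of the 10, which are those 5 and CXCR4, against 37.4% of all genes tested. When libraries were paired by their shared code, 6 mediators were lower (EREG and CXCR4 were added) and 2 were higher (ST6GALNAC5 was added), with backgrounds of 17.8% lower and 19.5% higher. For 8 of the 10 the difference had the same direction in each of the 3 pairs, IL11 and PTGS2 being the exceptions. Several genes serve more than 1 organ. Of 6 linked to lung, 3 were lower and 1 was higher without pairing. Of 3 linked to bone, 1 was lower. Of 4 linked to brain, 1 was lower and 1 was higher, and ANGPTL4, PTGS2 and VCAM1 count under 2 organs each.

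**Figure D1:**
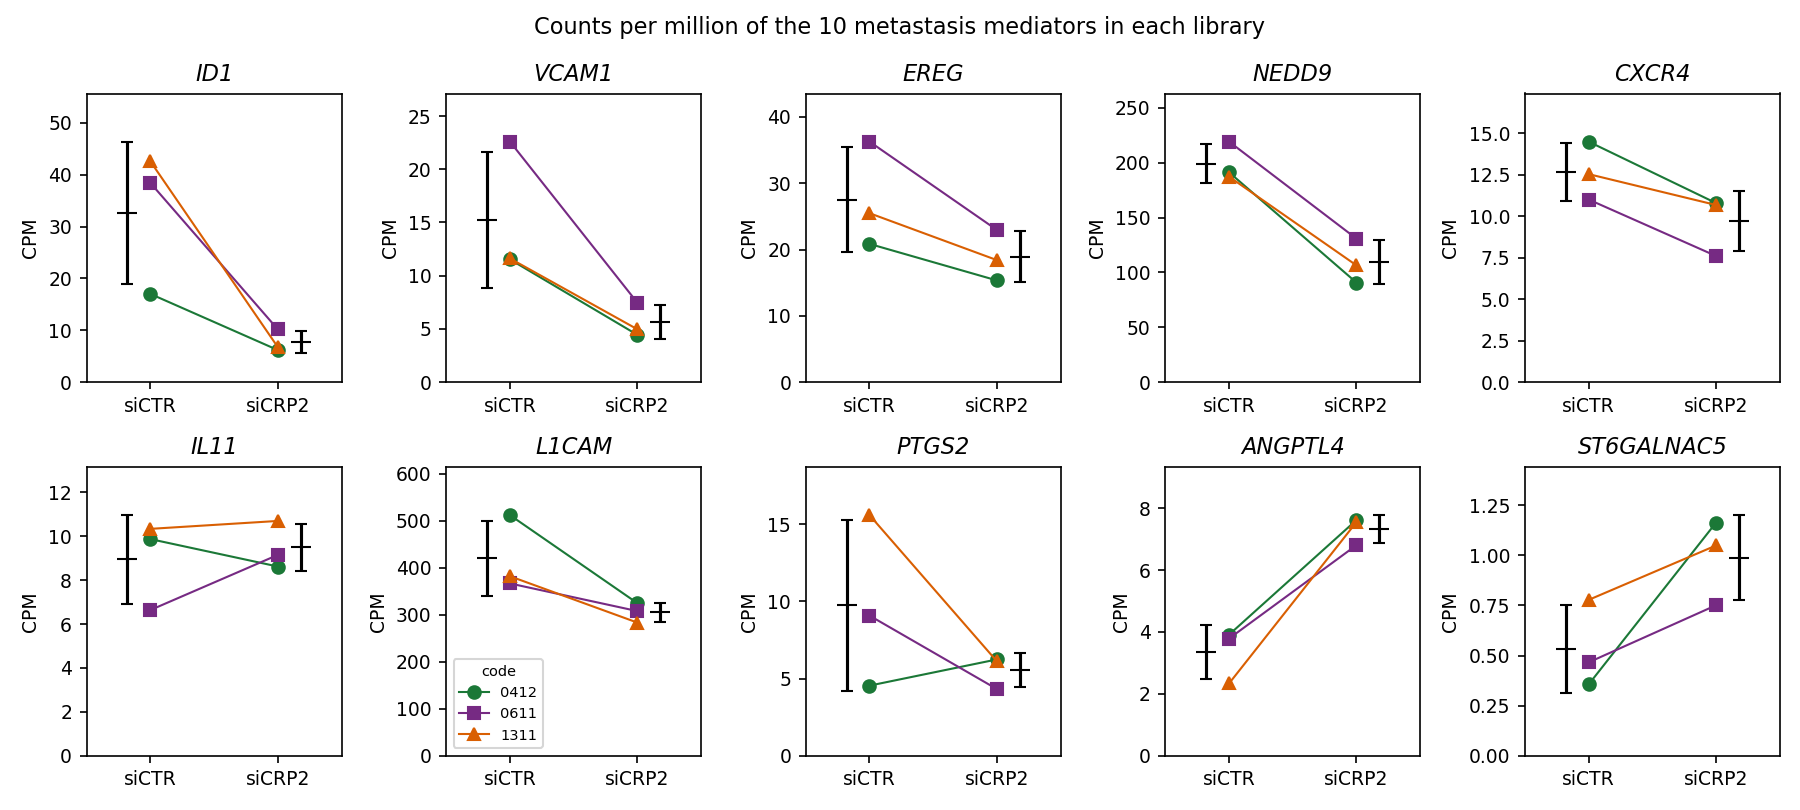
CPM (vertical axis, linear, from 0) of each mediator in the 3 siCTR and 3 siCRP2 libraries, with lines joining libraries that share a code and black bars for the mean ± SD of a group. All 3 lines fall for ID1, VCAM1, EREG, NEDD9, CXCR4 and L1CAM and rise for ANGPTL4 and ST6GALNAC5, while those of IL11 and PTGS2 go both ways.

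A TATA box stood at the same place in the promoters of mediators that were lower, higher or in neither class. RefSeq promoters (250 bases before to 50 after a start site, GRCh38.p14) were found for all 10 genes, 15 promoters in all because CXCR4 and NEDD9 have 3 and L1CAM has 2. It was searched as TATAAA only, so other spellings, such as tatataa in the IL11 promoter, were not counted. TATAAA was present on either strand in 6 of the 15 promoters, each of another gene, against 11.5% of 35116 promoters. In each of these 6 genes it began 29 to 32 bases before the start site on the strand of the gene. A window of 35 to 22 bases before the start site, set after these positions were seen, held TATAAA in 2.78% of 27305 genes. The 6 are shown because they carry this match, as the 100 bases that end at the base before the start site, with TATAAA in capitals and, in VCAM1, also a match to the NF-kappaB site. They include the 2 mediators with the largest falls, the mediator with the largest rise and 3 that did not pass without pairing.

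ID1, chr20:31605189-31605288, plus strand: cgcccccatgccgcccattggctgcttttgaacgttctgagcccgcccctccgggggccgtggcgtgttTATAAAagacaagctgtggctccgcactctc
VCAM1, chr1:100719642-100719741, plus strand: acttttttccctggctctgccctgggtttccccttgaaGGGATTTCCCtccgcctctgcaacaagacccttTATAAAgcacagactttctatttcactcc
ANGPTL4, chr19:8364055-8364154, plus strand: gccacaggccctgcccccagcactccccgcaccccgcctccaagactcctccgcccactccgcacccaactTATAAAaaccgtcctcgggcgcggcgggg
EREG, chr4:74365045-74365144, plus strand: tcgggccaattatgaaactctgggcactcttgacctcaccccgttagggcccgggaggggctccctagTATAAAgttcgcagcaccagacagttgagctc
CXCR4, chr2:136118150-136118249, minus strand: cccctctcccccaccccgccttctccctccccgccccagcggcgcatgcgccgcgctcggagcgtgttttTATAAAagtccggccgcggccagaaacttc
PTGS2, chr1:186680424-186680523, minus strand: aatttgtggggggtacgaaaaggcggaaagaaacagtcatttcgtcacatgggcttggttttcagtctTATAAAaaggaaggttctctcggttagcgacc

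Other motifs, each searched on both strands, matched few of these promoters. The CArG box, the sequence bound by serum response factor (SRF), which the study links to CRP2, matched 1 of the 15, at the second CXCR4 start, against 1.29% of all promoters. The NF-kappaB site matched VCAM1 alone (5.91% of all), and the AP-1 site TGANTCA matched IL11 alone (7.71%). The TEAD site GGAATG matched EREG and ID1 (14% of all). The hypoxia response core (ACGTG or GCGTG) matched 10 of the 15, but also 48.4% of all promoters, and 3 motifs (CRE, TGACGTCA; E-box, CACGTG, which contains the hypoxia core; SMAD1 element, GGCGCC) matched none. A match is a stretch of letters and not a site shown to be bound.

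**Figure D2:**
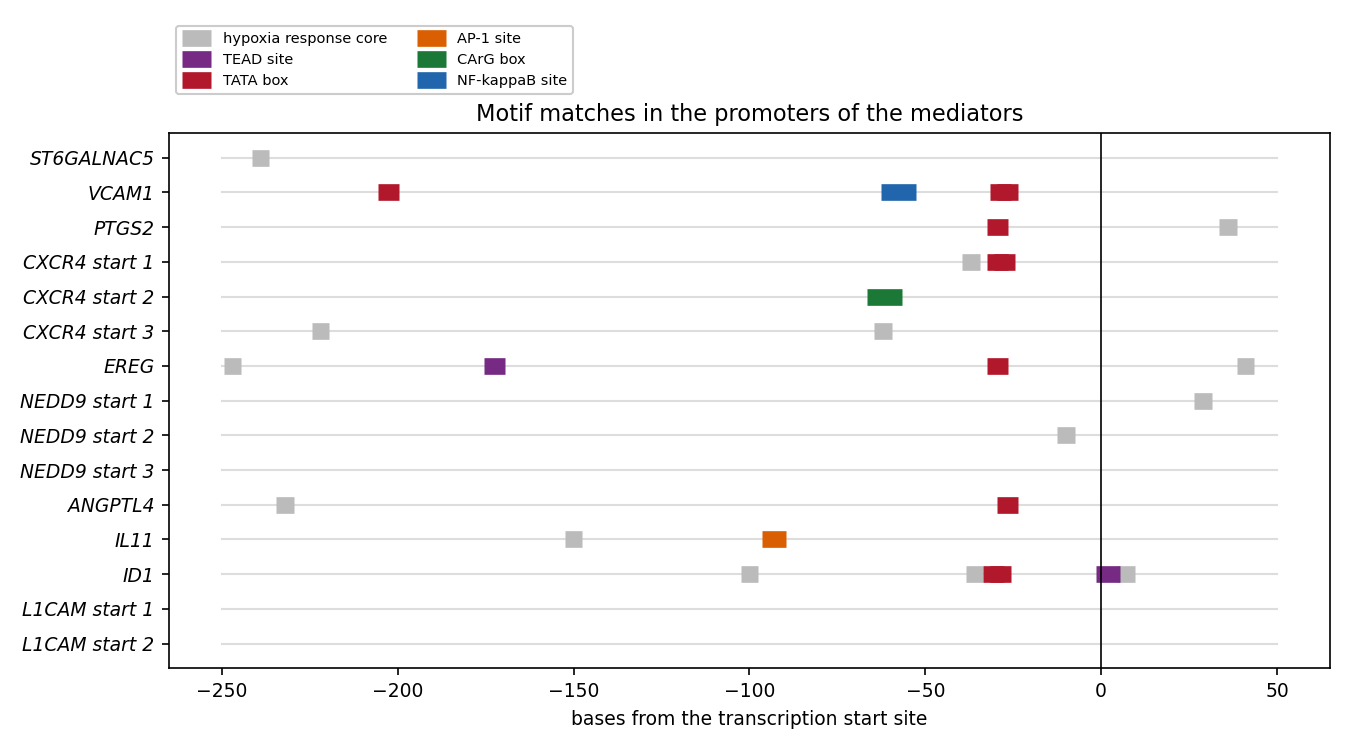
Matches to 6 motifs (colored blocks) in the 15 RefSeq promoters of the mediators, placed by distance in bases from the transcription start site (black line). The TATA boxes of 6 genes, searched as TATAAA only, line up 29 to 32 bases before the start, whereas L1CAM and the third NEDD9 start hold no match.

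The intracellular regulators were ID1 and NEDD9. ID1, an inhibitor of basic helix-loop-helix (bHLH) transcription factors that supports growth in the lung, lies at chr20:31605283-31606515 (plus strand, GENCODE on GRCh38). It stood at 17.0, 38.4 and 42.6 CPM in siCTR libraries 0412, 0611 and 1311 and at 6.19, 10.2 and 6.76 CPM in the siCRP2 libraries of the same codes. All siCRP2 values lay under the lowest control value, and the controls themselves spanned 2.50-fold. On the log2 scale the difference was -2.08 ± 0.449 (standard error), with an adjusted p of 0.033 in edgeR, and it ranked 35 from the lowest of 10446 coding genes averaging 5 CPM or more. Within codes 0412, 0611 and 1311 the log2 ratio was -1.46, -1.92 and -2.66. The call was lost without siCRP2 library 0412 or 1311 (-1.97 and -2.01, adjusted p = 0.114 and 0.134 from edgeR) and without siCTR library 0611 or 1311 (-1.95 and -1.84, adjusted p = 0.0705 and 0.0822).

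NEDD9, a scaffold of the CAS family that links focal adhesion and SRC kinases to cell migration, lies at chr6:11183298-11382348 (minus strand). It was at 191, 219 and 187 CPM in the siCTR libraries and at 90.7, 131 and 106 CPM in the siCRP2 libraries. The groups were well apart, by -0.87 ± 0.122 (standard error) on the log2 scale, with an adjusted p of 0.00023 in edgeR. NEDD9 kept an adjusted p under 0.05 in each of the 14 alternative fits, with a range of -1.04 to -0.76 when single libraries were left out.

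The adhesion molecules were L1CAM and VCAM1. L1CAM, an immunoglobulin-family molecule by which tumor cells spread along brain capillaries, lies at chrX:153861514-153886173 (minus strand). Its levels were 512, 367 and 382 CPM in siCTR and 325, 308 and 283 CPM in siCRP2 libraries. The fall was modest, at -0.46 ± 0.119 (standard error) on the log2 scale with an adjusted p of 0.0116 in edgeR, and it was largest in code 0412 (-0.66 against -0.25 and -0.43). L1CAM also kept its call in each of the 14 alternative fits, but without siCTR library 0412 the difference was smaller, at -0.30 (adjusted p = 0.0236 from edgeR).

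VCAM1, which binds integrin alpha-4 on leukocytes and on osteoclast precursors, lies at chr1:100719742-100739045 (plus strand). It was at 11.5, 22.6 and 11.6 CPM in siCTR and at 4.44, 7.46 and 4.97 CPM in siCRP2 libraries. The value of code 0611 was the highest in either group, and every siCRP2 library lay under every control. The difference was -1.43 ± 0.337 (standard error) on the log2 scale with an adjusted p of 0.023 in edgeR, rank 157 from the lowest of the 10446 genes, and the ratio within codes was -1.38, -1.60 and -1.23. Without siCRP2 library 0412 or 1311 the call was lost (-1.31 and -1.36, adjusted p = 0.0737 and 0.099 from edgeR). VCAM1 is also a gene of endothelial cells. The summed level of 3 endothelial markers (PECAM1, CDH5 and VWF) was 9.76 to 22.0 CPM in siCTR and 5.08 to 7.42 CPM in siCRP2 libraries, nearly all of it PECAM1, while CDH5 had 8 counts and VWF 52 counts in the 6 libraries together. The summed level of 3 immune markers (PTPRC, CD3E and CD14) was 29.9 to 39.5 CPM in siCTR and 9.32 to 11.1 CPM in siCRP2 libraries and came almost wholly from CD14, with CD3E at 1 count. The part of these markers in the results was not tested.

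VCAM1 was also the only mediator whose canonical transcript held the heptamer GCCTCAC, which had been picked in earlier work on these same fold changes. The site lies at base 17 of the transcript, in exon 1 and the 5′ UTR (chr1:100719758-100719764), and is shown with 10 bases on each side and the heptamer in capitals.

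VCAM1 site: tctgcatcggGCCTCACtggcttcagg

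Among 14858 protein-coding genes tested, the heptamer was in the canonical transcript of 46.5% of those lower, 11.9% of those higher and 21.9% of those that passed in neither direction, and in 23.9% of all. As the heptamer was picked on these same fold changes, the contrast between lower and higher genes is not an independent result. ID1, NEDD9 and L1CAM, the other lower mediators, did not hold the heptamer. Its part in the level of VCAM1 was not tested.

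Of the 3 secreted factors, 1 rose. ANGPTL4, an angiopoietin-like protein that inhibits lipoprotein lipase and opens endothelial junctions, lies at chr19:8363289-8374370 (plus strand). It was at 3.91, 3.79 and 2.33 CPM in siCTR and at 7.62, 6.81 and 7.55 CPM in siCRP2 libraries, with a wide gap between the groups. The rise was 1.13 ± 0.204 (standard error) on the log2 scale with an adjusted p of 0.00054 in edgeR, rank 94 from the highest of the 10446 genes, and the call held in each of the 14 alternative fits (0.93 to 1.28 without single libraries).

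EREG (epiregulin), a ligand of EGFR and ERBB4 that helps to remodel vessels in the lung, lies at chr4:74365145-74388749 (plus strand). It was at 20.9, 36.3 and 25.5 CPM in siCTR and at 15.3, 23.0 and 18.4 CPM in siCRP2 libraries. The groups overlapped, yet both followed the same order of codes, and the siCRP2 library was lower within every code (-0.44, -0.66 and -0.47). The log2 fold change of -0.54 (standard error 0.224) had an adjusted p of 0.133 in edgeR's unpaired fit and of 3.46e-08 with libraries paired by code (-0.53). The paired fit shares estimates of spread across genes, so its p does not rest on the ratios of EREG alone. EREG also passed without siCTR library 0412 (-0.70, adjusted p = 0.0142 from edgeR).

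IL11, an IL-6 family cytokine that promotes osteoclast formation, lies at chr19:55364382-55370463 (minus strand). Its levels were 9.87, 6.64 and 10.3 CPM in siCTR and 8.62, 9.15 and 10.7 CPM in siCRP2 libraries. The groups overlapped, with siCRP2 library 1311 above every control, and the log2 fold change was 0.08 with a 95% interval of -0.29 to 0.45 (adjusted p = 0.78 from edgeR). Its sign turned without siCRP2 library 1311 (-0.04) or siCTR library 0611 (-0.09).

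CXCR4, the receptor of the chemokine CXCL12 that bone marrow and lung produce, lies at chr2:136114349-136119177 (minus strand). It was at 14.5, 11.01 and 12.5 CPM in siCTR and at 10.8, 7.60 and 10.7 CPM in siCRP2 libraries. The groups did not overlap, but by a narrow margin. The log2 fold change of -0.39 (standard error 0.163) had an adjusted p of 0.0998 in edgeR's unpaired fit and of 0.0020 with libraries paired by code, where the estimate was -0.38.

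The enzymes were PTGS2 and ST6GALNAC5. PTGS2 (cyclooxygenase-2), which carries out the committed step of prostaglandin synthesis, lies at chr1:186671791-186680922 (minus strand). It was at 4.54, 9.08 and 15.6 CPM in siCTR and at 6.24, 4.32 and 6.12 CPM in siCRP2 libraries. The controls alone spanned 3.44-fold, the widest of the 10, and the siCRP2 library was higher in code 0412 (0.46) and lower in codes 0611 and 1311 (-1.07 and -1.35). The log2 fold change was -0.80 with a 95% interval of -2.05 to 0.45 (adjusted p = 0.33 from edgeR). Without siCTR library 0412 it was -1.15 (adjusted p = 0.0015 from edgeR), and without siCTR library 1311 it was -0.27 (adjusted p = 0.56).

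ST6GALNAC5, a sialyltransferase of the brain that strengthens adhesion to brain endothelium when tumor cells express it, lies at chr1:76867480-77067546 (plus strand). It had 9, 8 and 17 counts in the siCTR libraries (0.355, 0.466 and 0.778 CPM) and 22, 16 and 41 counts in the siCRP2 libraries (1.16, 0.751 and 1.05 CPM). A single library is therefore poorly resolved. The 8 counts of siCTR library 0611 have a 95% exact Poisson interval of 3.45 to 15.8 counts, which covers counting error only. The log2 fold change was 0.89 (standard error 0.374), with an adjusted p of 0.0992 in edgeR's unpaired fit and of 0.0315 with libraries paired by code (0.88). Without siCTR library 1311 it was 1.29 (adjusted p = 0.0365 from edgeR).

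**Figure D3:**
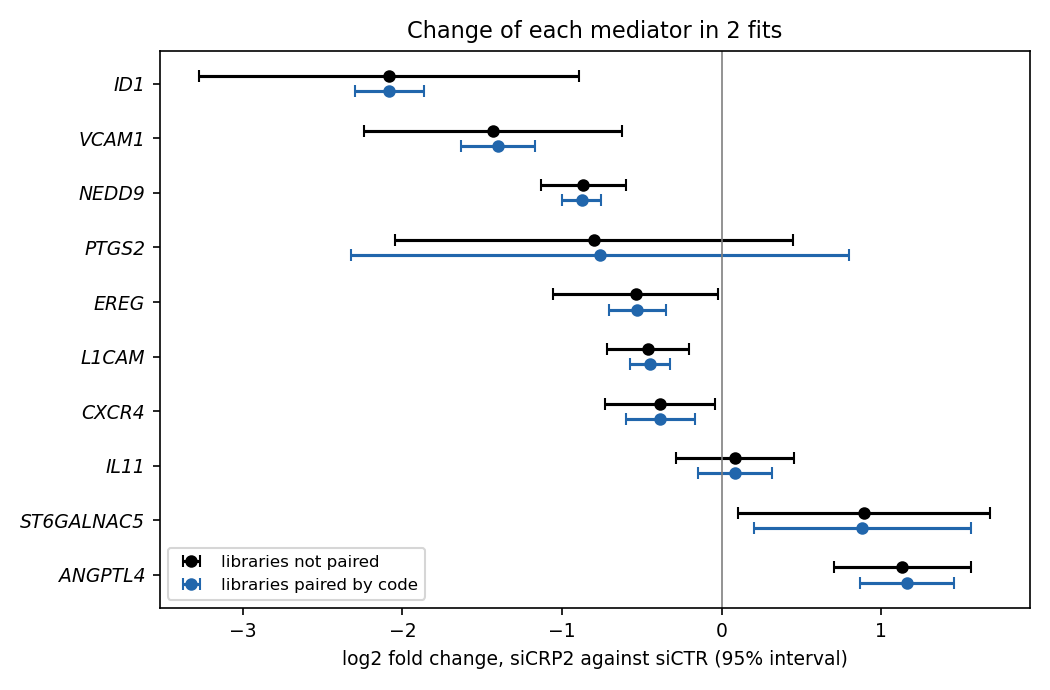
Log2 fold change of each mediator in siCRP2 against siCTR cells (horizontal axis) with its 95% interval, from the fit without pairing (black) and with libraries paired by code (blue). The estimates hardly differ between the fits, from -2.08 for ID1 to 1.13 for ANGPTL4 without pairing. The intervals of ID1, VCAM1 and EREG are narrower with pairing, while that of PTGS2 is wider. The paired interval of ID1 (-2.30 to -1.87) leaves out its log2 ratios within codes 0412 (-1.46) and 1311 (-2.66).

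Genes overlapping the mediators in the annotation had few counts. The opposite-strand genes at PTGS2 (PACERR), NEDD9 and L1CAM (L1CAM-AS1) had 3, 5 and 2 counts in the 6 libraries, against 1061, 21361 and 51363 for the mediators.

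Compared per length of exon, the mediators covered a wide range of levels. In siCTR cells L1CAM was highest at 57.8 ± 10.997 CPM per kb (SD, n = 3), followed by ID1 at 26.5 ± 11.1 and NEDD9 at 19.2 ± 1.68 CPM per kb. EREG (4.82 ± 1.39), CXCR4 (4.37 ± 0.603), IL11 (3.34 ± 0.753), VCAM1 (2.52 ± 1.05), PTGS2 (1.78 ± 1.01) and ANGPTL4 (1.35 ± 0.354) followed, and each overlapped in range with its neighbor in this order. ST6GALNAC5 was lowest at 0.088 ± 0.036 CPM per kb. These levels depend on the length used, and per kb of canonical transcript NEDD9 was at 44.1, CXCR4 at 7.60 and VCAM1 at 4.92 CPM per kb in siCTR cells, each over 1.5 times higher. With all exons, L1CAM stood apart from ID1, NEDD9 from EREG and ANGPTL4 from ST6GALNAC5, whereas ID1 and NEDD9 overlapped. L1CAM lay above 95.7% of 14858 protein-coding genes tested and ST6GALNAC5 above 14.3%. In siCRP2 cells NEDD9 (10.6 ± 1.95 CPM per kb) stood above ID1 (6.25 ± 1.75) with no overlap, and ANGPTL4 (2.96 ± 0.182) stood above PTGS2 (1.01 ± 0.196) and VCAM1 (0.930 ± 0.267).

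**Figure D4:**
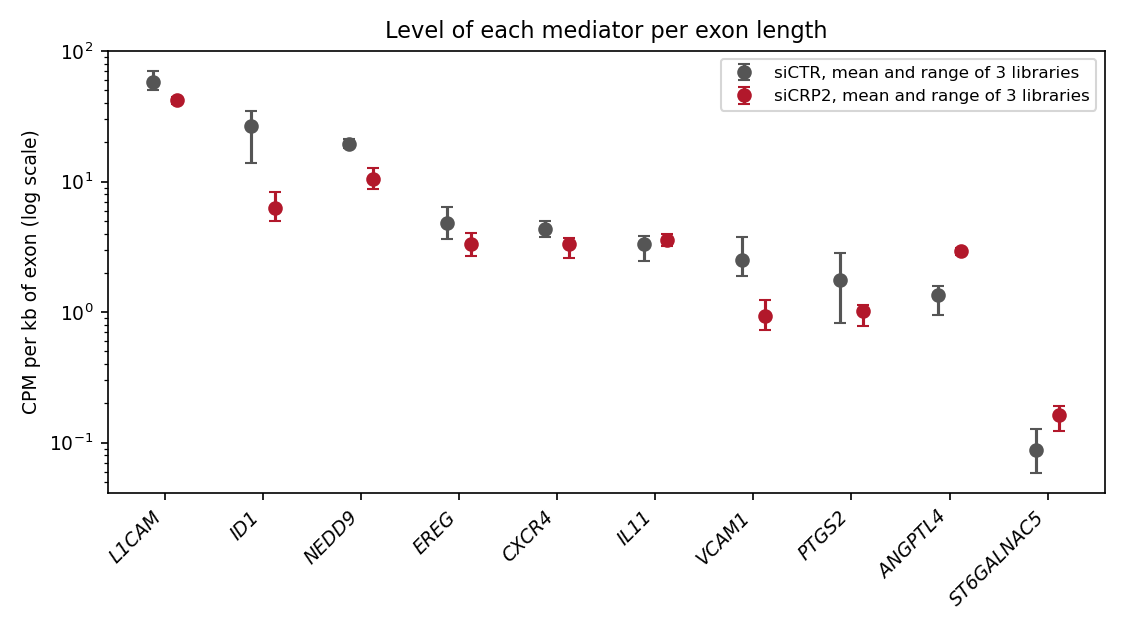
Level of each mediator in CPM per kb of exon (vertical axis, log scale) in siCTR (grey) and siCRP2 cells (red), with points for the mean and bars for the range of 3 libraries. L1CAM is highest and ST6GALNAC5 lowest in either group, ID1 is under NEDD9 after siCRP2, and the mean of ANGPTL4 moves from below those of PTGS2 and VCAM1 to above them.

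The partners of the mediators were followed in 13 lists of 233 genes, of which 203 were tested. In all, 47 were called lower and 25 higher by edgeR's unpaired fit, and 78 lower and 40 higher with libraries paired by code. Over all genes tested the shares were 11.5% lower and 12.5% higher unpaired, and 17.8% and 19.5% paired. Of the 14858 protein-coding genes tested, 2369 were lower and 2852 higher unpaired. Around ANGPTL4, 4 of 15 genes were lower and 3 higher. The higher ones were PDK4, an inhibitor of pyruvate oxidation (5.35 ± 1.97 to 16.1 ± 1.79 CPM, means ± SD of 3 libraries, as for the other genes, 1.61 on the log2 scale), the lipid droplet gene PLIN2 (0.86) and the fatty acid import gene CPT1A (0.58). Like ANGPTL4, these 3 are textbook targets of the PPAR nuclear receptors, whose part in these changes was not tested. Without siCRP2 library 0611 or 1311, 1 gene of this list was called higher. Among the lower ones were PPARD, the gene of such a receptor (-0.40), the hypoxia factor gene HIF1A (1110 ± 232 to 632 ± 35.6 CPM, log2 fold change -0.81) and LMF1, which matures lipoprotein lipase (-0.92). LPL, the lipase that ANGPTL4 inhibits, had 37 counts in control and 57 in knockdown libraries, with an adjusted p of 0.60 in edgeR.

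Around ID1, 1 of 20 genes was lower and 1 higher (4 and 4 with pairing). ID2 was lower, with 44 counts in control and 18 in siCRP2 libraries (-1.62 on the log2 scale, adjusted p of 0.0222 in edgeR), and SMAD5, which carries BMP signals to the ID genes, was higher (0.34). ID3 stood at 2.61, 7.16 and 11.03 CPM in siCTR and at 0.265, 1.36 and 0.947 CPM in siCRP2 libraries of codes 0412, 0611 and 1311. Its groups did not overlap, its controls stood in the same order of codes as those of ID1, and its log2 fold change of -2.96 had an adjusted p of 0.0543 in edgeR's unpaired fit and passed with libraries paired by code.

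Around CXCR4, 3 of 15 genes were lower and 2 higher (4 and 4 with pairing). The second CXCL12 receptor gene, ACKR3, was lower (16.7 ± 2.31 to 9.90 ± 2.13 CPM, -0.75 on the log2 scale), as were the arrestin gene ARRB1 (-0.93) and CD74 (-0.57), and GNAI3 (0.34) and GRK6 (0.34) were higher. CXCL12 itself had 1 count in either group and was not tested. Around IL11, 4 of 18 genes were lower and 4 higher (4 and 9 with pairing). The IL-6 receptor gene IL6R rose from 0.743 ± 0.305 to 3.75 ± 1.01 CPM (log2 fold change 2.37), with JAK1 (0.40) and LIF (0.55) also higher, while TYK2 (-0.53), SOCS1 (-1.15) and the oncostatin M receptor gene OSMR (-1.85) were lower. The receptor genes of IL11 did not pass, with IL11RA at 2.78 ± 0.375 and 3.95 ± 0.437 CPM (adjusted p = 0.101 from edgeR, passing with pairing) and IL6ST at 608 ± 29.5 and 602 ± 4.87 CPM.

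Around EREG, 4 of 17 genes were lower and 1 higher (9 and 2 with pairing). EGF fell from 3.87 ± 0.456 to 1.15 ± 0.337 CPM (log2 fold change -1.78), RHBDF2, which escorts the ligand-releasing protease ADAM17, by 0.78 and the receptor inhibitor gene ERRFI1 by 0.69 on the log2 scale, and ERBB3 rose by 0.99. The receptors of EREG did not pass without pairing. EGFR stood at 303 ± 20.4 and 273 ± 26.4 CPM (adjusted p = 0.28 from edgeR, and 0.0472 with pairing), and ERBB4 had 27 and 15 counts (0.33, and 0.0306 with pairing). Around PTGS2, 3 of 13 genes were lower and 2 higher (7 and 2 with pairing). PTGER4, a prostaglandin E2 receptor gene, was lower (6.61 ± 0.870 to 3.28 ± 0.747 CPM, log2 fold change -0.99), as were TBXAS1 (-1.25) and the prostaglandin-degrading HPGD (-1.53), and the transporter gene ABCC4 (0.33) and PTGES3 (0.29) were higher. PTGES, the synthase usually coupled to PTGS2, was at 122 ± 49.1 and 105 ± 35.5 CPM (adjusted p = 0.81 from edgeR, and 0.0123 with pairing), and PTGER2 had 46 and 89 counts (adjusted p = 0.15 from edgeR).

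Around NEDD9, 3 of 18 genes were lower and 4 higher (3 and 6 with pairing). BCAR1, the founding CAS scaffold, was lower (105 ± 15.7 to 69.4 ± 7.76 CPM, log2 fold change -0.60), as were AURKA, a kinase that NEDD9 binds and activates (-0.62), and BCAR3 (-0.41). The kinase genes PTK2, for focal adhesion kinase (0.53), FYN (0.68) and YES1 (0.36) were higher. Around L1CAM, 2 of 13 genes were lower, ITGB3 (-1.28) and ITGAV (-0.30), the chains of an integrin that binds L1CAM, and 2 were higher, EZR (0.49) and RDX (0.54), which tie membrane proteins to actin (7 and 2 with pairing). Around VCAM1, 6 of 18 were lower, among them BCAM (-0.73), ITGB1 (-0.41) and F11R (-0.45), and EZR, also in this list, was the 1 higher (8 and 2 with pairing). ITGA4, the usual partner chain for VCAM1, had 3 counts in control and 0 in knockdown libraries, too few for a fold. Around ST6GALNAC5, 4 of 19 genes were lower, among them ST8SIA4 (-2.11), ST3GAL2 (-0.66) and ST8SIA1 (-1.24), and 2 were higher, NANS (0.66) and CMAS (0.46), which make the sialic acid donor (7 and 2 with pairing). ST6GALNAC6 had 47 and 52 counts (adjusted p = 0.77 from edgeR).

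Other genes linked to metastasis of this line to the same organs were counted in 3 lists. Among all genes tested, 11.5% were lower and 12.5% higher (17.8% and 19.5% with pairing). Among the 14858 protein-coding genes tested, 2369 were lower and 2852 higher without pairing. Differences between the lists were not tested. Of 15 further lung genes, 9 were lower and 0 higher in edgeR's unpaired fit, with a median log2 fold change of -1.05. They included KRT81 (-1.68), the collagenase gene MMP1 (-1.54) and ADIRF (-0.98), and 12 were lower and 0 higher with pairing. Before adjustment 0 of these genes were higher at p under 0.05 as well, and 0 were higher in edgeR's exact test and in DESeq2. Of 16 further brain genes, 6 were lower and 1 higher (8 and 3 with pairing, median -0.50), with MMP1, LTBP1 (-1.15) and the sodium channel gene SCNN1A (-1.47) lower and PELI1 (0.62) higher. Of 13 further bone genes, MMP1 was the 1 lower, and 3 were higher, namely the activin antagonist gene FST (36.8 ± 4.80 to 81.8 ± 10.7 CPM, log2 fold change 1.15), SRGN (0.97) and DUSP1 (1.31), with a median of -0.53 (5 lower and 3 higher with pairing). These lists were drawn up with results of these data known, and MMP1 stands in all 3.

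**Figure D5:**
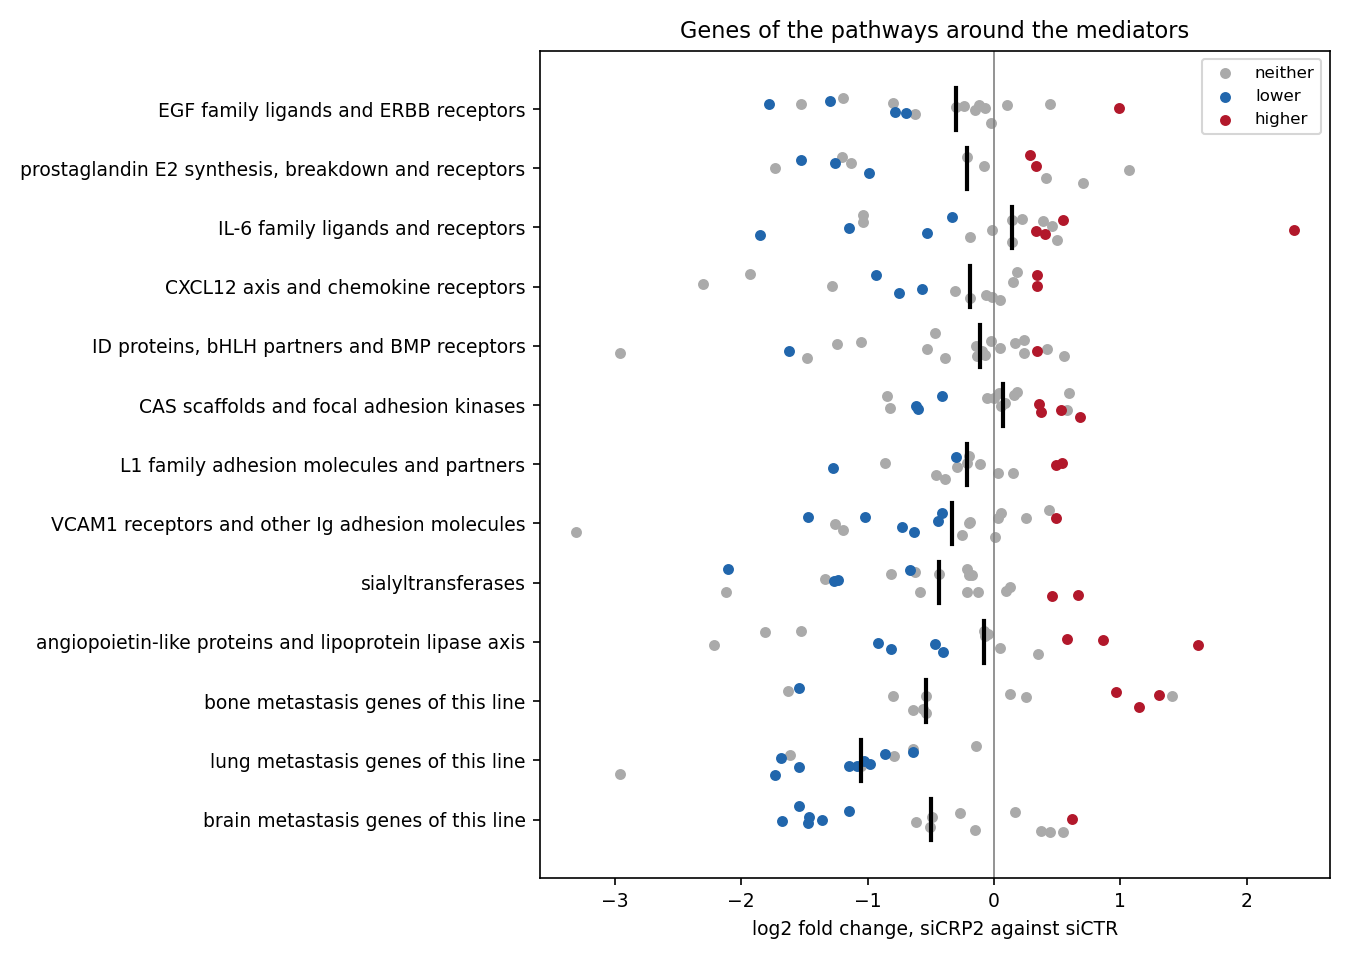
Log2 fold change in siCRP2 against siCTR cells (horizontal axis) of the tested genes in the 13 lists, spread vertically within a list for legibility, colored blue for genes called lower, red for genes called higher and grey for the others, with a black line for the median. The lung list lies furthest to the left with a median of -1.05, while the IL-6 family list has a median of 0.14. ITGA4, which had too few counts for a fold, is also drawn, and the median of the VCAM1 list is -0.33 with it and -0.25 without it.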

How the data were processed

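The study sequenced RNA from MDA-MB-231 cells of the siCTR and siCRP2 groups, 3 libraries each. The authors deposited raw counts per gene, made by aligning paired reads to GRCh38 with STAR, which also counted them, and its version, the annotation and the strand setting were not given in the sources used here. From these counts, edgeR 4.0.16 in R 4.3.3 fitted a robust quasi-likelihood model with TMM scaling to genes counted in 2 or 3 libraries of a group. P-values were adjusted by Benjamini-Hochberg over all 23806 genes and called under 0.05. CPM used TMM-scaled totals. DESeq2 1.42.0 and edgeR's exact test were among 14 alternatives. The fitting was tested on simulated data.

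Columns carry codes (0412, 0611, 1311) and not the replicate numbers of the labels. Deviations from the group means correlated at 0.721, 0.459 and 0.744 between libraries sharing a code, and at 0.111 at most otherwise, over 10828 genes averaging 5 CPM or more. Deviations within a group cancel out, so high values for shared codes push the others down, and the low values are no separate evidence. Libraries were therefore paired by code in an alternative fit, and the pairing comes from the column names and this check. Because edgeR shares estimates of spread across genes, a narrow paired interval or a small paired p does not measure a gene's own spread between codes. The study calls the 3 libraries of a group biological replicates, while the labels number them and do not name separate cultures. Library totals of 17336798 to 39115778 set the counting precision.

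The mediators and the 13 lists were chosen with earlier results of these data known. Named genes are the 10 mediators, CSRP2, up to 3 genes per direction and list with the smallest p among those called, and set partners (CXCL12, ACKR3, IL11RA, IL6ST, PTGES, PTGER2, PTGER4, EGFR, ERBB4, BCAR1, PTK2, ITGA4, ITGB1, ID2, ID3, LPL and ST6GALNAC6). Gene positions are from GENCODE release 44 and promoters from RefSeq, both on GRCh38. A further marker is not reported here.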

Additional observations from a re-analysis of the deposited data

How the results depend on the processing

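ANGPTL4, NEDD9 and L1CAM kept their direction and call in all 14 alternatives, and VCAM1 and ID1 kept their direction. With libraries paired by code (the replicate block), CXCR4 (-0.38), EREG (-0.53) and ST6GALNAC5 (0.88) passed, 2 mediators were higher, and 78 list genes were lower and 40 higher. Over all genes the block gave 4229 lower and 4644 higher, against 2735 and 2987. It changed no other mediator's call. Without a filter CXCR4 (-0.41) and EREG (-0.55) passed and ID1 (-2.10, adjusted p = 0.0544 from edgeR) did not, and with DESeq2 PTGS2 (-0.83) and EREG (-0.56) passed. The cause of these changes was not tested. When single libraries were left out, log2 fold changes ran from -2.40 to -1.84 for ID1, -1.71 to -1.04 for VCAM1, -0.55 to -0.30 for L1CAM, -0.72 to -0.29 for EREG, -1.15 to -0.27 for PTGS2, -0.50 to -0.27 for CXCR4, -0.09 to 0.20 for IL11 and 0.64 to 1.29 for ST6GALNAC5. IL11 turned sign without siCRP2 library 1311 (-0.04) and siCTR library 0611 (-0.085). The mediators called ran from 2 to 6 lower and 1 to 2 higher, with 2 lower without siCRP2 library 0412 or 1311. List genes ran from 36 to 56 lower and 16 to 28 higher, the 16 without siCRP2 library 1311, where 1933 genes of all were higher. Some single lists moved further. Around VCAM1, 2 were lower without siCRP2 library 1311 or siCTR library 0611. Around ID1, 0 were lower without siCRP2 library 0412 or 0611. Around PTGS2, 0 were higher without siCRP2 library 0611 or 1311, and around EREG, 0 without these or siCTR library 0611. Lung genes stayed at 8 to 10 lower and those around NEDD9 at 3 lower. With the length of the canonical transcript in place of all exons, the mean of NEDD9 was above that of ID1 in siCTR cells, but their ranges overlapped. Depth limits ST6GALNAC5 most, with 113 counts in the 6 libraries.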
